A study of Mus musculus with 4 samples.

Results

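The myostatin and activin genes of the mouse heart were examined in 4 mRNA-seq libraries, 1 per group of the study. E(−)T(−) is the normal control, E(+)T(−) the normal exercise group, E(−)T(+) the cancer control and E(+)T(+) the cancer exercise group, where E stands for exercise and T for tumor. The set was defined by name and held 9 of the 23282 genes listed, namely the ligand genes Mstn, Gdf11, Inhba, Inhbb and Gdf15, the inhibitor genes Fst and Fstl3, and the receptor genes Acvr2a and Acvr2b. All 9 were listed, each by 1 value per library. The mice were of the CDF1 strain, for which the labels name no transgene, and were labelled as postnatal day 28, which the study's methods give as about the age at purchase, so that the hearts, taken at the end of the experiment, came from older mice. The T(+) mice received CT26 murine colorectal cancer cells through the tail vein, and the E(+) mice ran on a treadmill at high intensity. E(−)T(−) had neither treatment, E(+)T(−) had the running only, E(−)T(+) had the cells only and E(+)T(+) had both. Each group of the study held several mice, and the sources do not say whether a heart library came from 1 mouse or from pooled mice. With 1 library per group, no difference below has a replicate check, no test between groups was possible and no p-value is given.

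Ligands of this family are made as precursors, cut by furin-like and BMP1-like proteases, and bind a type II receptor kinase such as ACVR2A or ACVR2B, which switches on a type I receptor kinase and, through it, SMAD2 and SMAD3. Follistatin, the product of Fst, and its relative FSTL3 bind activins, myostatin and GDF11 outside the cell and keep them from their receptors. Myostatin restrains the growth of skeletal muscle, and the pathway is known for its part in muscle wasting during cancer and in cardiac remodelling. GDF15 is a distant relative that is made under cellular stress, acts through the receptor GFRAL in the hindbrain and lowers food intake.

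Read numbers were worked back from the deposited values, and the totals ran from 6595420 to 11546004 reads per library. The QuantSeq kit reads the 3′ end of each mRNA, so a read stands for a transcript whatever its length, and levels were compared between genes as reads without division by length. The E(+)T(+) library stood apart, with 37.3% of its reads from globin genes against 7.86 to 8.76% in the other libraries. All 8 ventricular and general cardiomyocyte markers had reads in every library, and none was 2-fold different in any comparison. The 10 skeletal muscle markers summed to between 101 and 190 normalized reads, and Myf6 had 0 reads in all 4 libraries. Of these markers 3 were called higher in each tumor comparison, among them Tnni2 with 7, 8, 42 and 33 reads, while Mybpc2, with 69 to 153 reads, was called in none. Of the other marker lists, the 7 erythroid genes were 2-fold higher in E(+)T(+) than in both libraries it was compared with, and the 5 neutrophil genes listed were 2-fold higher in both T(+) libraries than in their T(−) counterparts. All 6 white adipocyte genes were 2-fold lower in the normal exercise and the cancer control library than in the normal control, and Ucp1, the defining gene of brown fat, had 814 reads in E(+)T(+) and 0 elsewhere. In E(−)T(+), the library in which Fst and Fstl3 were highest, against E(−)T(−), 5 of 7 macrophage genes and 4 of 5 proliferation genes were called higher, 2 of 5 endothelial genes lower, 1 of 5 mesothelial genes in each direction, and 0 of 5 lung epithelial genes. In E(+)T(+) against E(+)T(−), all 5 lung epithelial and all 5 proliferation genes were called higher, and 1 macrophage gene in each direction. In E(+)T(+) against E(−)T(+), 4 of 5 lung epithelial, 3 of 5 neutrophil and all 5 white adipocyte genes past the count minimum were called higher. In that comparison 2 of 5 mesothelial genes were lower, and of 7 macrophage genes 1 was higher and 2 lower. With tumor-free exercise 3 of 5 lung epithelial genes were called lower. Called shares of all genes, higher and lower, were 5.88% and 6.40% for tumor-free exercise and 9.39% and 10.0% for exercise in cancer-bearing mice. They were 14.6% and 13.1% for the tumor without exercise and 12.0% and 11.1% for the tumor in exercised mice. The part of these cell types in the results below was not tested. In such bulk tissue, fewer cells of a type and less RNA per cell cannot be told apart.

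Fstl3 was listed with the most reads of the 9 genes, which cannot be told apart from those of the overlapping gene Prss57, averaging 334 normalized reads over the 4 libraries, higher than 80.8% of the genes that had reads. Acvr2a, whose reads may include those of the overlapping gene Orc4, followed with 98.5. Then came Gdf15 with 74.0, Inhbb with 42.3, Inhba with 36.7, Acvr2b with 22.1 and Fst with 17.4. Gdf11 with 5.04 and Mstn with 1.39 were close to the detection limit, which was set at 3 reads per library. Neighbours in this order overlapped in their range over the libraries except Fstl3 and Acvr2a, whose reads ran from 131 to 616 and from 86 to 110. More reads were thus listed under the inhibitor Fstl3 than under any ligand of the set in every library.

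**Figure D1:**
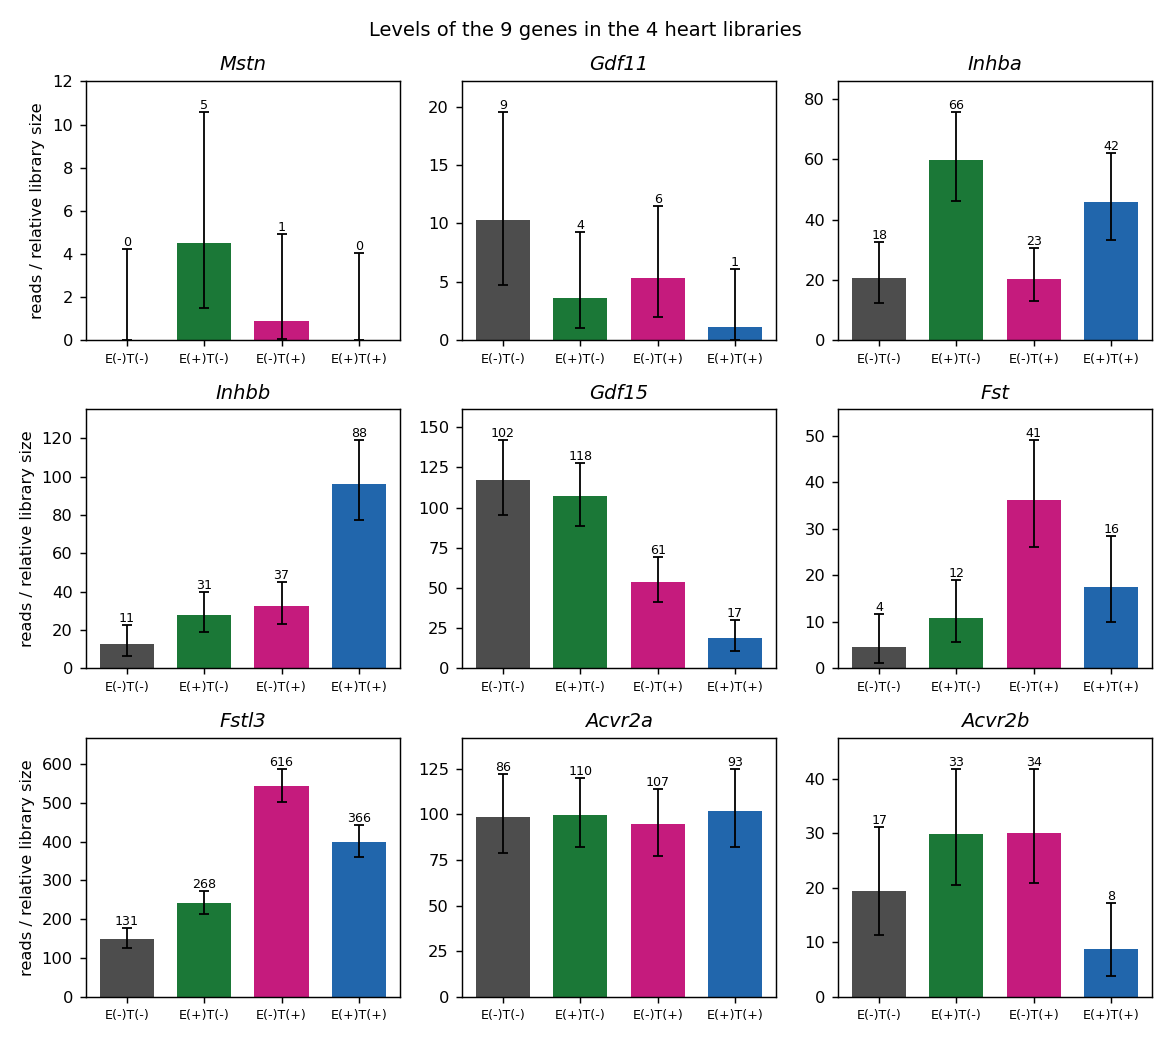
Normalized read counts (recovered reads divided by the relative library size, y axis) of the 9 genes in the 4 heart libraries, with 1 library per bar, the recovered reads printed above it and bars of error giving exact 95% Poisson intervals of the reads. Acvr2a lies between 86 and 110 reads, Inhba is high in both E(+) libraries, Inhbb is highest in E(+)T(+) with 88 reads, and Gdf15 is lowest there with 17 reads.

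Of the ligands, the activin subunit genes Inhba and Inhbb were higher after exercise with and without cancer, Inhbb was also higher in both cancer libraries, and Gdf15 was lower in both cancer libraries. Fold changes are differences of the deposited log2 values, which hold log2(normalized read count + 1) so that the change of a gene with few reads is understated. A called gene had to differ at least 2-fold and reach a normalized read count of 4 in 1 or both of the 2 libraries. Each change is followed by its 95% Clopper-Pearson interval, made from the ratio of the reads and covering counting error only. Variation between mice is not in it, since each group has 1 library. Reads copied by PCR are not independent molecules, so the interval may be too narrow even for counting error.

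Inhba lies on the plus strand at chr13:16011851-16031621 (mm10) and encodes the subunit that pairs with itself to form activin A. It had 18 reads in the normal control, 66 in the normal exercise, 23 in the cancer control and 42 in the cancer exercise library. Both exercise libraries thus lay above both libraries without exercise. The change with exercise was 1.48 on the log2 scale in tumor-free mice (95% interval, 0.76 to 2.37). In cancer-bearing mice the change with exercise was 1.15 (0.41 to 1.98). The tumor differences were -0.04 (-0.98 to 0.95) without exercise and -0.38 (-0.97 to 0.20) with it, both with intervals across 0. When libraries were scaled by their total reads, globin included, the exercise change in cancer-bearing mice was 0.57 and no longer a call.

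Atrial genes moved beside Inhba with exercise, but not with the tumor in exercised mice. The summed normalized reads of the 5 atrial markers were 14776 in the normal control, 18664 in the normal exercise, 8867 in the cancer control and 28877 in the cancer exercise library, so that both exercise libraries again lay highest. Nppa, an atrial peptide gene, made up most of each sum, with 12791, 14223, 7008 and 18832 normalized reads in the same order. Its change with tumor-free exercise was 0.15, short of a call. Myl7, the atrial myosin light chain, had 650, 1896, 779 and 2079 reads in the same order. Sln, which encodes the atrial calcium pump regulator sarcolipin, had 434, 1402, 680 and 4479 reads. In the exercise comparison without tumor, 2 of the 5 atrial markers were called higher (5.88% of all genes). Bmp10 alone was called lower (6.40% of all genes), with 6 reads in the normal control against 0. For exercise with tumor 4 were called higher (9.39% of all genes). With the tumor in exercised mice, the 4 atrial markers past the minimum changed by 0.405 to 1.949, whereas Inhba was -0.38. The part of atrial tissue in the Inhba differences was not tested.

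Inhbb lies on the minus strand at chr1:119415465-119422248 and encodes the subunit of activin B. It had 11 reads in the normal control, 31 in the normal exercise, 37 in the cancer control and 88 in the cancer exercise library, the lowest with neither treatment and the highest with both. The change with exercise was 1.06 (0.12 to 2.29) without tumor and 1.53 (0.99 to 2.16) with it. The tumor went with 1.28 (0.37 to 2.49) without exercise and 1.74 (1.17 to 2.42) with it. Inhbb was thus called higher in all 4 comparisons, and every interval lay above 0. The change in tumor-free exercise was 0.92 with a pseudocount of 4, and exercise in cancer-bearing mice gave 0.95 under scaling by total reads, neither of them a call.

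Activin B is also made by fat cells, and the white adipocyte list did not follow Inhbb in all comparisons. Its 6 genes summed to 2026 normalized reads in the normal control, 526 in the normal exercise, 434 in the cancer control and 2582 in the cancer exercise library. In E(+)T(−) and E(−)T(+), where Inhbb was higher than in E(−)T(−), all 6 fat genes were lower. In E(+)T(+) Inhbb and the fat sum were both higher than in E(−)T(−), but the fat genes were mixed. Adipoq, Plin1 and Cfd were higher there, with Cfd at 1885 against 1228 normalized reads. Cidec with 164 against 263, Retn with 61.2 against 104 and Lep with 0.04 against 8.75 were lower. The 3 brown adipocyte genes summed to 430, 418, 579 and 1832 normalized reads in E(−)T(−), E(+)T(−), E(−)T(+) and E(+)T(+). This sum was, like Inhbb, highest in E(+)T(+), but it was not higher in E(+)T(−) than in E(−)T(−). Outside E(+)T(+) nearly all of it was Cidea. The adipocyte part in the Inhbb differences was not tested.

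The balance of the activin subunits differed between libraries. Inhba had 1.64 reads for each Inhbb read in E(−)T(−) (95% interval, 0.73 to 3.83) and 2.13 in E(+)T(−) (1.37 to 3.38). In the cancer libraries the ratio was 0.62 in E(−)T(+) (0.35 to 1.07) and 0.48 in E(+)T(+) (0.32 to 0.70). Both tumor-free ratios lay above both cancer ratios, and the ratio within a library does not depend on how libraries were scaled. Inha, which encodes the subunit that turns activins into inhibins, had 0, 6, 13 and 3 reads in E(−)T(−), E(+)T(−), E(−)T(+) and E(+)T(+). It was 3.33-fold higher in E(−)T(+) than in E(−)T(−) when the library with 0 reads was set at the floor of 3 reads. The lower bound of its counting interval was 1.23 on the log2 scale.

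Gdf15 lies on the minus strand at chr8:70629393-70632456. It had 102 reads in the normal control, 118 in the normal exercise, 61 in the cancer control and 17 in the cancer exercise library. Both cancer libraries lay below both tumor-free libraries. The tumor went with a change of -1.11 (-1.60 to -0.65) without exercise and -2.45 (-3.35 to -1.78) with it. Exercise went with -0.13 (-0.53 to 0.27) in tumor-free mice and -1.47 (-2.40 to -0.74) in cancer-bearing mice. These 3 calls kept their direction under every scaling tried. Gfral, the gene of the GDF15 receptor, had 0 reads in all 4 libraries.

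The stress genes listed beside Gdf15 differed in order among themselves. Trp53, the gene of the p53 protein and chosen after its values were seen, had 39, 51, 20 and 16 reads in E(−)T(−), E(+)T(−), E(−)T(+) and E(+)T(+) and was, like Gdf15, called lower with the tumor both without exercise, at -1.30 (-2.20 to -0.53), and with it, at -1.34 (-2.31 to -0.57). Chac1, which encodes a glutathione-degrading enzyme of the integrated stress response, had 1 read in the normal control, 18 in the normal exercise, 66 in the cancer control and 52 in the cancer exercise library. Atf3, a stress-induced transcription factor, had 52, 324, 395 and 520 reads in the same order. Chac1 and Atf3 were thus lowest in E(−)T(−), where Gdf15 had 102 reads. In E(−)T(+) against E(−)T(−) the change was 4.65 for Chac1 (3.14 to 10.99, with 1 read in the lower library) and 2.52 for Atf3 (2.13 to 2.99). Cdkn1a, the cell cycle inhibitor gene that p53 switches on, had 553, 2341, 2856 and 6685 reads and was called higher in all 4 comparisons. Trib3, a pseudokinase gene of the same stress response, had 28, 29, 60 and 9 reads and was, like Gdf15, lowest in E(+)T(+), with a change of -2.30 (-3.62 to -1.41) against E(−)T(+).

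The upstream sequences of Gdf15, Chac1 and Atf3 are shown because these genes are known targets of the integrated stress response and differed in order between the libraries. Its factors ATF4 and CHOP bind the amino acid response element, with the core TGATGNAA (TTNCATCA on the other strand), written in capitals below where it occurs. The 250 bases before the start are given from RefSeq on GRCm38.p6, on the strand of the gene. They lie at chr8:70632457-70632706 (minus), chr2:119350992-119351241 (plus) and chr1:191183334-191183583 (minus).
Gdf15: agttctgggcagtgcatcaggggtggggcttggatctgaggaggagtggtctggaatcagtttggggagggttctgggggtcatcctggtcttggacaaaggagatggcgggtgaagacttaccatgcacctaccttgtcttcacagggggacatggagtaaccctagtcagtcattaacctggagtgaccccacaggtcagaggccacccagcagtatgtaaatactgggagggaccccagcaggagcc
Chac1: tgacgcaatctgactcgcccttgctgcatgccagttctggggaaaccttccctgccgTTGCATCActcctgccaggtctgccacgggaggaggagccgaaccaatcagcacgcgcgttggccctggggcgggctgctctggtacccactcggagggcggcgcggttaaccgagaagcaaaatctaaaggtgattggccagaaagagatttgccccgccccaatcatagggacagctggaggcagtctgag
Atf3: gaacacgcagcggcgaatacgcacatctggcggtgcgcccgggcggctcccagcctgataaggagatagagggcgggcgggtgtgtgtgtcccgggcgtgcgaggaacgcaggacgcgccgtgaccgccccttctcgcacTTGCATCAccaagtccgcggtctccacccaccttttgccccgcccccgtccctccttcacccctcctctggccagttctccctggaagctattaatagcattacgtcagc
The core was found in the Chac1 window, from 193 bases before the start, and in the Atf3 window, from 110 bases before it. These letters were not in the Gdf15 window. RefSeq windows were matched for 8 of the 9 genes, and 0 of their 9 windows held the core, against 4 of the 12 windows of the stress list and 3.45% of all 32851 windows of this length. A match describes the letters only and is not a site of binding.

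Mstn lies on the plus strand at chr1:53061640-53068079 and had 0 reads in the normal control, 5 in the normal exercise, 1 in the cancer control and 0 in the cancer exercise library. Myostatin mRNA was thus near or below the detection limit in all 4 libraries. Against the floor of 3 reads it was 1.32-fold higher in E(+)T(−) than in E(−)T(−) and 1.38-fold lower in E(+)T(+) than in E(+)T(−). The counting intervals of both span 0, with a lower bound of -0.47 and an upper bound of 0.40. The other comparisons give no fold, since both libraries were below the floor.

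Gdf11, whose product is the closest relative of myostatin, lies on the minus strand at chr10:128882295-128891718. It had 9 reads in the normal control, 4 in the normal exercise, 6 in the cancer control and 1 in the cancer exercise library. The exercise changes of -1.28 (-3.66 to 0.33) without tumor and -1.53 (-7.80 to 0.77) with it passed the call rule, but all 4 of its intervals span 0. No difference of Gdf11 was detectable at this depth.

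**Figure D2:**
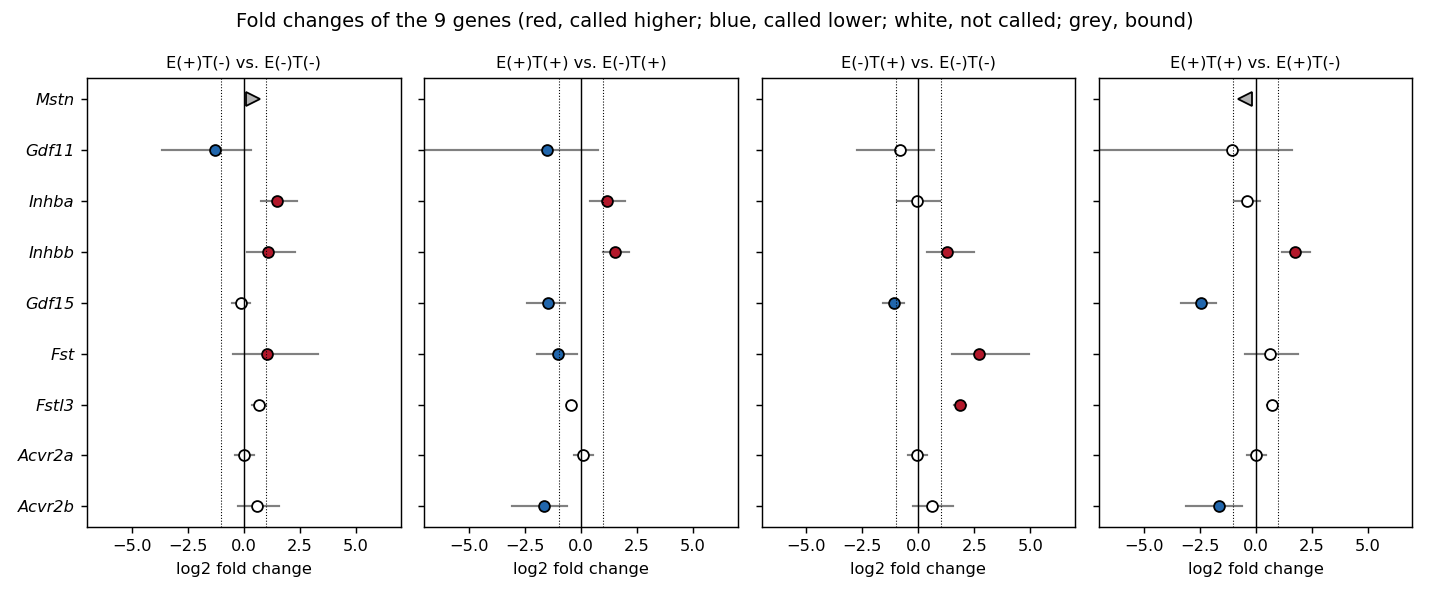
Log2 fold changes (x axis) of the 9 genes in the 4 comparisons, with points for the deposited values, grey lines for 95% counting intervals cut off at the axis limits, and dotted lines at 2-fold. Grey triangles for Mstn mark bounds against 3 reads, Inhbb lies right of 0 in all 4 panels, and Acvr2a lies within 0.11 of 0 in all 4.

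Of the inhibitors, both genes were highest in the cancer control library. Fst lies on the minus strand at chr13:114452290-114458951 and had 4 reads in the normal control, 12 in the normal exercise, 41 in the cancer control and 16 in the cancer exercise library. The tumor went with a change of 2.70 (1.51 to 4.92) in mice without exercise and 0.65 (-0.48 to 1.90) in exercised mice. Exercise went with 1.02 (-0.48 to 3.33) in tumor-free mice and -1.02 (-1.98 to -0.18) in cancer-bearing mice, which are opposite directions at the edge of the call rule. With a pseudocount of 4 these exercise changes were 0.75 and -0.91, and neither was a call. Under scaling by total reads the tumor change in exercised mice was -0.03.

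Fibroblast and matrix genes moved beside Fst. The 8 fibroblast markers summed to 25618 normalized reads in the normal control, 30628 in the normal exercise, 55390 in the cancer control and 32252 in the cancer exercise library, the order of Fst. Dcn, the decorin gene, made up 73.0 to 91.2% of these sums, and the other 7 markers summed to 5194, 8139, 14936 and 2843, with E(+)T(+) lowest, so that the match with Fst in that library rests on Dcn. The median change of all 8 markers, Dcn included, was 0.39, -1.26, 1.13 and -0.78 for exercise without tumor, exercise with tumor, tumor without exercise and tumor with exercise. Col3a1, a fibrillar collagen gene, had 1049, 2411, 4942 and 402 reads in E(−)T(−), E(+)T(−), E(−)T(+) and E(+)T(+), and Pdgfra, a receptor gene of fibroblasts, had 202, 255, 637 and 195. Both were, like Fst, highest in E(−)T(+), and both were lowest in E(+)T(+), where Fst was not. The part of fibroblasts in the Fst differences was not tested.

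**Figure D3:**
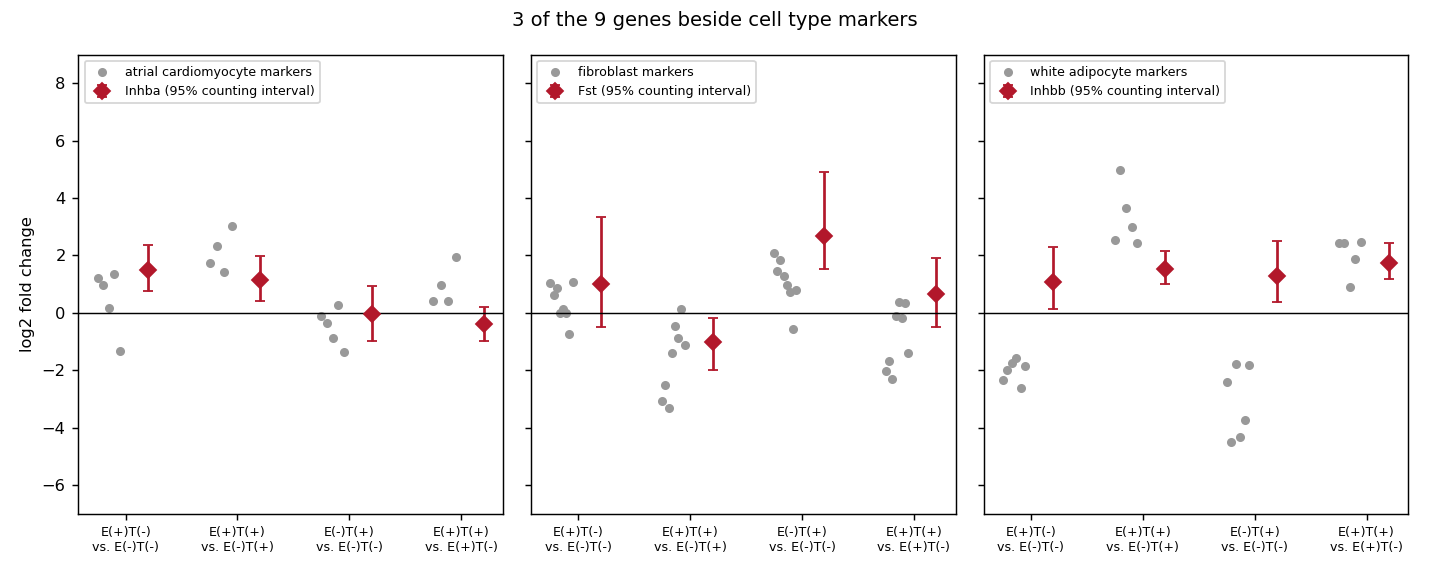
Log2 fold changes (y axis) of Inhba, Fst and Inhbb (red diamonds, with 95% counting intervals) in the 4 comparisons, beside the cell type markers that passed the count minimum (grey points, 1 per gene, with genes at 0 reads in a library drawn at their bound against 3 reads). The 4 atrial markers and Inhba lie above 0 for exercise in cancer-bearing mice, Fst and 4 of 8 fibroblast markers are at least 2-fold up in E(−)T(+) against E(−)T(−), and the 6 fat genes lie below 0 in the panels' comparisons of E(+)T(−) and E(−)T(+) with E(−)T(−) while Inhbb lies above it.

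Fstl3 lies on the plus strand at chr10:79777272-79782630. It had 131 reads in the normal control, 268 in the normal exercise, 616 in the cancer control and 366 in the cancer exercise library, so that E(−)T(−) was lowest and E(−)T(+) highest, as for Fst. The tumor went with a change of 1.85 (1.58 to 2.14) without exercise, which was the only call, and 0.72 (0.49 to 0.96) with it. Exercise went with 0.69 (0.38 to 1.004) in tumor-free mice and -0.44 (-0.63 to -0.25) in cancer-bearing mice. All 4 intervals excluded 0. Under scaling by total reads the exercise change in cancer-bearing mice was -1.03, past 2-fold, and the tumor change in exercised mice was 0.00.

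The Fstl3 reads cannot be told apart from those of a neighbouring gene. Prss57, a serine protease gene of neutrophil granules, lies on the other strand at chr10:79781474-79790961, and the 3′ ends of both genes share chr10:79781474-79782630, 1157 bases that are exonic in each. Prss57 was listed with 131, 268, 624 and 367 reads in E(−)T(−), E(+)T(−), E(−)T(+) and E(+)T(+), at most 8 reads away from Fstl3. The same reads therefore appear to stand under both names. Other protease and peroxidase genes of primary neutrophil granules, chosen after their values were seen, had few reads in the same order of libraries, with 3, 1, 21 and 15 for Prtn3, 0, 1, 4 and 0 for Elane, 0, 2, 7 and 12 for Mpo, and 0, 3, 5 and 6 for Ctsg. Each of these had at most 21 reads in a library. The 5 neutrophil markers listed summed to 119, 80, 3112 and 5963 normalized reads, highest in the cancer exercise library. Whether Fstl3 or Prss57 gave the shared reads was not tested.

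**Figure D4:**
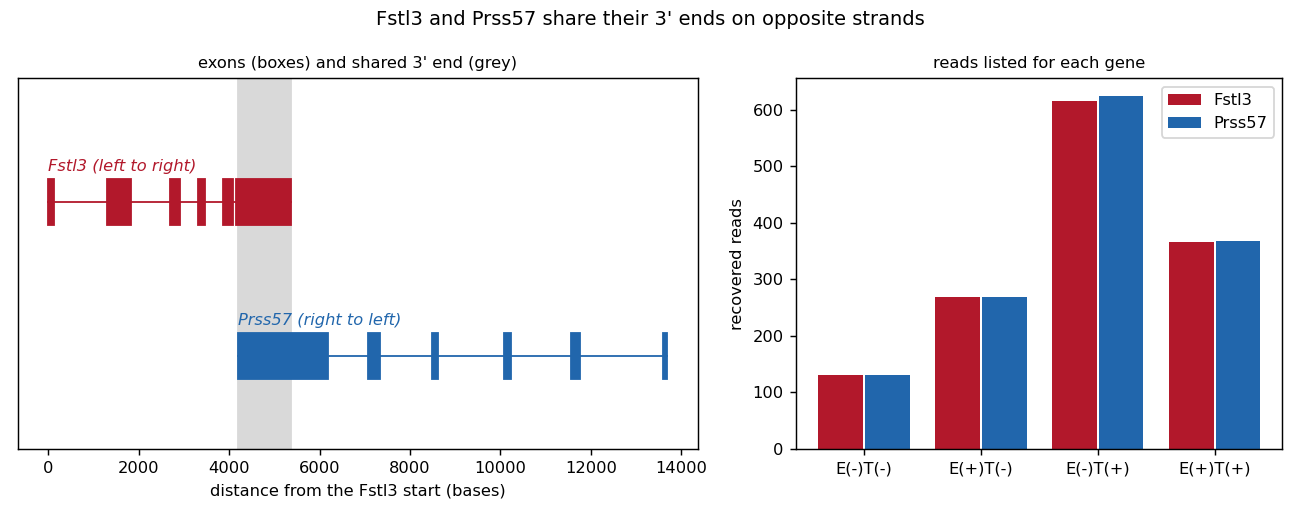
Left, exons (boxes) of Fstl3 and Prss57 along the distance in bases from the Fstl3 start, with the 1157 shared bases at the 3′ ends in grey. Right, recovered reads (y axis) listed for each gene in the 4 libraries, where the bars of both genes differ by at most 8 reads.

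Of the type II receptors, Acvr2a was called in no comparison and Acvr2b was low in the cancer exercise library. Acvr2a lies on the plus strand at chr2:48814109-48903269 and had 86 reads in the normal control, 110 in the normal exercise, 107 in the cancer control and 93 in the cancer exercise library. Its changes were 0.01 (-0.41 to 0.44), 0.11 (-0.31 to 0.52), -0.06 (-0.49 to 0.36) and 0.03 (-0.38 to 0.44) for exercise without tumor, exercise with tumor, tumor without exercise and tumor with exercise. All 4 intervals span 0, and none reaches beyond 0.52 in either direction. Under scaling by total reads the second and the fourth of these changes were -0.47 and -0.68, outside their intervals and short of a call. The last 446 exon bases of Acvr2a are shared with Orc4, a gene of the origin recognition complex on the other strand. Orc4 was listed with 282, 416, 291 and 283 reads, more than Acvr2a in every library. Some or all of the Acvr2a reads could therefore stand under both names.

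Acvr2b, on the plus strand at chr9:119402118-119434995, had 17 reads in the normal control, 33 in the normal exercise, 34 in the cancer control and 8 in the cancer exercise library. Against the E(+)T(+) library, E(−)T(+) and E(+)T(−) were both higher, with changes in E(+)T(+) of -1.65 (-3.10 to -0.64) and -1.65 (-3.10 to -0.63). Both calls share that 1 library. The other changes were 0.59 (-0.27 to 1.55) with exercise and 0.60 (-0.26 to 1.56) with tumor, each alone. Acvr2a outnumbered Acvr2b by 5.06 reads to 1 in the normal control (2.98 to 9.08), 3.33 in the normal exercise (2.24 to 5.08), 3.15 in the cancer control (2.12 to 4.78) and 11.6 in the cancer exercise library (5.66 to 27.7), which does not depend on the scaling of libraries. Any reads of Orc4 that stand under Acvr2a enter these ratios.

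Counted over the set, exercise in tumor-free mice gave 4 genes called higher and 1 lower, with 9 of 9 past the count minimum. The background over the 13937 genes past that minimum was 5.88% higher and 6.40% lower. Exercise in cancer-bearing mice gave 2 higher and 4 lower of the 8 that passed, against a background of 9.39% and 10.0%. The tumor gave 3 higher and 1 lower of 8 without exercise, against 14.6% and 13.1%, and 1 higher and 3 lower of 8 with exercise, against 12.0% and 11.1%. These counts include calls that rest on few reads, among them those of Mstn and Gdf11 and that of Fst with tumor-free exercise, with 12 against 4 reads. With a count minimum of 16, or with a pseudocount of 4, tumor-free exercise kept 2 calls instead of 5. The median changes of those past the minimum were 0.69, -0.73, 0.28 and -0.17 in the same order of comparisons, against 0.00, -0.01, -0.01 and -0.01 over all genes, and the first was 0.59 with Mstn at its bound. The comparisons share libraries, so their counts are not independent of each other. The 9 genes were chosen with earlier results of these data known, so their counts beside the background are a description only.

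A wider list of 65 genes, in 7 roles, was read in the same way. This list too was chosen with earlier results known, so its counts, also by role, are a description only. It held pathway genes and, as a role of its own, 12 stress genes listed beside Gdf15 that are not pathway genes. Tumor-free exercise gave 12 called higher and 2 lower of the 52 that passed the minimum, against 5.88% and 6.40% of all genes. Exercise in cancer-bearing mice gave 7 higher and 10 lower of 54, against 9.39% and 10.0%. The tumor gave 19 higher and 4 lower of 51 without exercise, against 14.6% and 13.1%. With exercise the tumor gave 10 higher and 11 lower of 55, against 12.0% and 11.1%. The medians of the whole list, stress genes included, were 0.39, -0.26, 0.71 and -0.16 in that order. Under scaling by total reads, which moves the median of all genes by -0.58 for exercise in cancer-bearing mice and by -0.71 for the tumor in exercised mice, these comparisons gave 0 higher and 22 lower, and 6 higher and 25 lower. Over all genes the same scaling gave 535 higher and 3604 lower, and 796 higher and 4997 lower.

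Genes that are switched on by SMAD2 and SMAD3 were mostly higher in the cancer control library than in the normal control. Of 8 such target genes, all past the minimum, 6 were higher and 0 lower with the tumor in mice without exercise, 4 higher and 0 lower with exercise in tumor-free mice, 0 higher and 5 lower with exercise in cancer-bearing mice, and 1 higher and 2 lower with the tumor in exercised mice. Over all genes the called shares, higher and lower, were 14.6% and 13.1%, 5.88% and 6.40%, 9.39% and 10.0%, and 12.0% and 11.1% in these comparisons. Timp1, a metalloproteinase inhibitor gene, had 18 reads in the normal control, 57 in the normal exercise, 922 in the cancer control and 150 in the cancer exercise library. Ctgf, a matricellular growth factor gene, had 1702, 3467, 12279 and 2238. Fn1, the fibronectin gene, had 198, 317, 866 and 201, and Col1a1, a collagen gene that also stands in the fibroblast list, had 522, 1361, 2907 and 275. All 4 were highest in E(−)T(+), with changes against E(−)T(−) of 5.22 for Timp1 (4.63 to 6.06), 2.47 for Ctgf (2.40 to 2.55), 1.75 for Fn1 (1.53 to 1.98) and 2.10 for Col1a1 (1.96 to 2.24). Postn, another of the 8, stands in the fibroblast list too, and the fibroblast markers described beside Fst moved in the same libraries.

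The signal carriers themselves were not called. Smad2 had 114, 132, 152 and 107 reads and Smad3 had 129, 184, 215 and 123 in E(−)T(−), E(+)T(−), E(−)T(+) and E(+)T(+), and neither differed 2-fold in any comparison. Smad3 was 0.36 (0.04 to 0.69) with the tumor without exercise and -0.49 (-0.83 to -0.17) with exercise in cancer-bearing mice, and all 4 intervals of Smad2 span 0. Of the 14 genes of SMAD signalling, at most 1 was called in each direction in any comparison. Smad6, an inhibitory SMAD gene, had 32, 103, 102 and 149 reads and was lowest in E(−)T(−), with changes against it of 1.31 (0.76 to 1.97) with exercise and 1.26 (0.71 to 1.92) with the tumor. Pmepa1, whose product dampens SMAD2 and SMAD3, had 766, 1725, 752 and 685 reads and was -1.06 (-1.19 to -0.93) in E(+)T(+) against E(+)T(−).

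Type I receptors and co-receptors differed by gene. Acvr1b, the main type I receptor gene of activins, was near the detection limit with 0, 6, 4 and 0 reads in E(−)T(−), E(+)T(−), E(−)T(+) and E(+)T(+). Tgfbr1, which can also serve myostatin and GDF11, had 48, 73, 110 and 69 and was called in no comparison. Tgfbr2, the TGF-β type II receptor gene, had 159, 228, 544 and 176, and Tgfbr3, the co-receptor gene betaglycan, had 188, 229, 529 and 286. Both were highest in E(−)T(+), with changes of 1.39 (1.14 to 1.66) and 1.11 (0.87 to 1.36) against E(−)T(−). Acvr1, a type I receptor gene used mainly by BMPs, had 132, 188, 115 and 52 and was, like Acvr2b, lowest in E(+)T(+), with -1.56 (-2.05 to -1.13) against E(+)T(−). Acvr1c, a type I receptor gene of fat cells chosen after its values were seen, had 14, 1, 3 and 8 reads, which is low in the same libraries as the fat genes. Of the 10 genes of this role, 8 passed the minimum with tumor-free exercise, and 1 was higher and 1 lower (5.88% and 6.40% of all genes). Exercise in cancer-bearing mice gave 1 higher and 2 lower of 7 (9.39% and 10.0%). The tumor without exercise gave 2 higher and 1 lower of 7 (14.6% and 13.1%). In exercised mice the tumor gave 1 higher and 3 lower of 8 (12.0% and 11.1%).

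The proteases that cut the precursors differed by gene and by comparison. Pcsk6, a furin-like protease gene, had 794 reads in the normal control, 780 in the normal exercise, 130 in the cancer control and 312 in the cancer exercise library, so that both cancer libraries lay below both tumor-free ones. Its change with the tumor was -2.98 (-3.27 to -2.72) without exercise and -1.05 (-1.24 to -0.86) with it. Bmp1, whose product frees myostatin and GDF11 from their propeptides, had 69, 84, 213 and 33 reads and was -2.35 (-2.96 to -1.85) with exercise in cancer-bearing mice. Furin with 412, 530, 1119 and 796 reads and Pcsk5 with 21, 30, 60 and 37 were both highest in E(−)T(+). Of the 6 genes of this role, 4 passed the minimum with tumor-free exercise and 0 were called, against 5.88% and 6.40% of all genes. The tumor without exercise gave 3 higher and 1 lower of 4 (14.6% and 13.1% of all genes). Exercise in cancer-bearing mice gave 2 higher and 1 lower of 5 (9.39% and 10.0%). The tumor in exercised mice gave 1 higher and 2 lower of 5 (12.0% and 11.1%). Tll1, another protease gene, was among the higher calls of the last 2 comparisons. It had 8 against 4 and 8 against 2 reads, and both intervals span 0.

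Few of the other ligand genes had enough reads, whereas most of the binding protein genes did. Of 7 further ligand genes 3 passed the minimum, and Tgfb3, a TGF-β gene, had 155, 318, 77 and 95 reads in E(−)T(−), E(+)T(−), E(−)T(+) and E(+)T(+), with changes with the tumor of -1.38 (-1.80 to -0.98) without exercise and -1.46 (-1.82 to -1.13) with it. Inha was the only other call of this role, higher with tumor-free exercise and with the tumor without exercise and lower with exercise in cancer-bearing mice. Both exercise calls of Inha rest on few reads, 6 against 0 and 3 against 13, and their intervals span 0. Wfikkn2, whose product binds myostatin and GDF11, had 43, 26, 51 and 58 reads and was lowest in E(+)T(−), at -1.04 (-1.83 to -0.33) against E(−)T(−). In E(+)T(+) it was 1.40 (0.74 to 2.16) against E(+)T(−). Of the 8 binding protein genes, 6 passed the minimum with tumor-free exercise, and 1 was higher and 1 lower. Exercise in cancer-bearing mice gave 1 higher and 0 lower of 7. The tumor without exercise gave no call among 6, and the tumor in exercised mice gave 2 higher and 0 lower of 7. Of the 12 stress genes 10 passed the minimum in each comparison, and 4 were called higher with tumor-free exercise (5.88% of all genes), 2 higher and 1 lower with exercise in cancer-bearing mice (9.39% and 10.0%), 6 higher and 1 lower with the tumor without exercise (14.6% and 13.1%), and 4 higher and 2 lower with the tumor in exercised mice (12.0% and 11.1%). The same shares apply to the counts of the other roles.

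**Figure D5:**
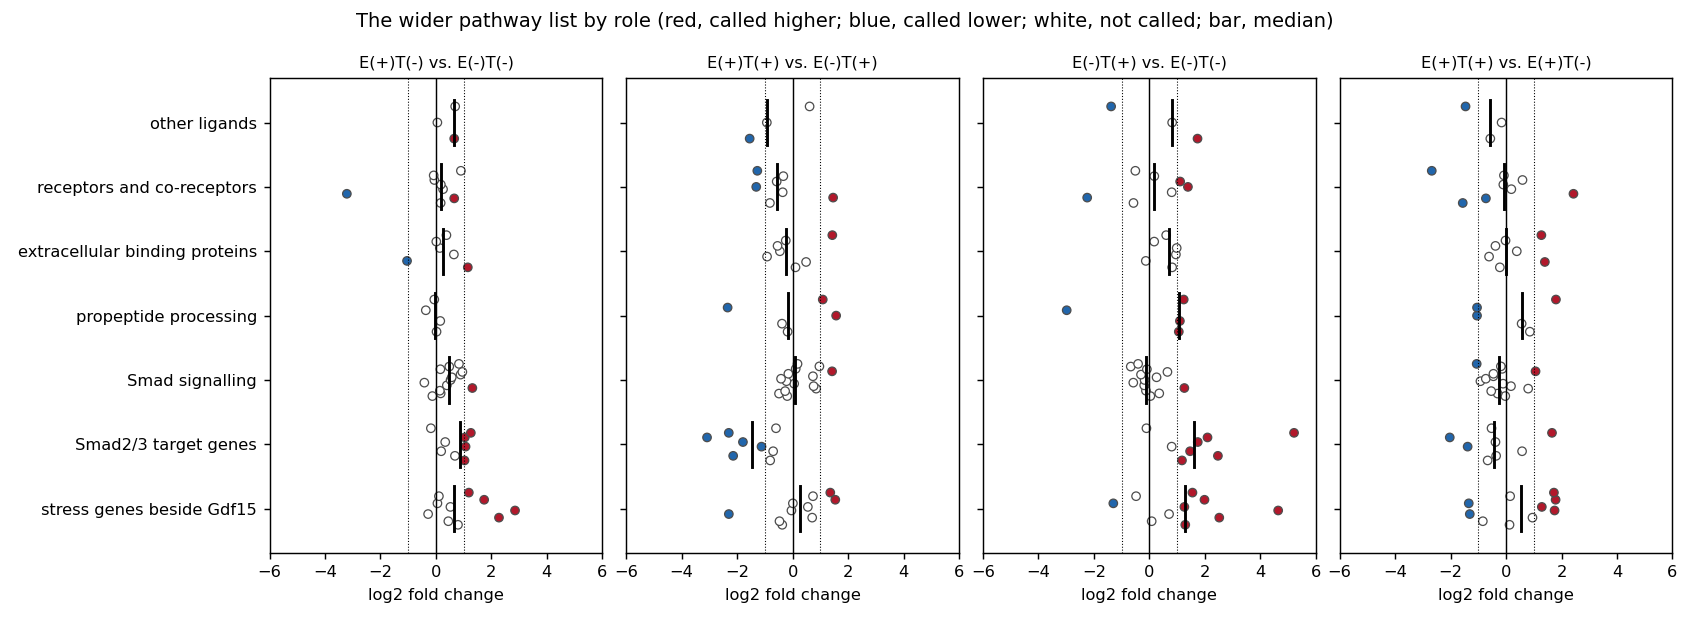
Log2 fold changes (x axis) of the genes of the wider list, stress genes included, that passed the count minimum, 1 point per gene in 7 roles (at the bound against 3 reads where a library had 0), for the 4 comparisons, with a black bar at the median of each role. The SMAD2 and SMAD3 target genes have medians of 0.86, -1.46, 1.61 and -0.45 in the panels from left to right, and the genes of SMAD signalling have medians between -0.25 and 0.48.

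For each called member averaging 16 or more normalized reads, the 3 genes closest in pattern were sought among 11632 genes, by the distance of centred log2 values over the 4 libraries. Inhbb lay closest to Egr1, an immediate early gene with 152, 440, 583 and 1206 reads in E(−)T(−), E(+)T(−), E(−)T(+) and E(+)T(+), at a distance of 0.20, and then to Tulp2 and Ppp1r1b. Inhba lay closest to Lrrc75a at 0.29, with 11, 40, 16 and 22 reads, and then to Ccrn4l and Nfil3. Each of these had more reads in both exercise libraries than in E(−)T(−). Gdf15 lay closest to Stk10 at 0.13, with 62, 64, 33 and 9 reads, and then to Matn2 and Fbxo46. Fst lay closest to Vsig2 at 0.10, with 4, 13, 45 and 17 reads, and then to Mfap2, which encodes a microfibril protein, and Rnf121. Acvr2b lay closest to Figf at 0.11, the gene of the growth factor VEGF-D, with 39, 72, 81 and 18 reads, and then to Elf4 and Ercc8. Fstl3 lay closest to Prss57 at 0.02, with which it shares its 3′ end, and then to Pi4k2b and Rrp12. With 4 libraries among this many genes, close neighbours are common, and the distances are a description only.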

How the data were processed

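Hearts of the 4 groups were analysed, with 1 QuantSeq library per group. Gastrocnemius and lung data of the study were not analysed here. The authors aligned reads with Bowtie2 to mm10 and counted them per gene with bedtools, and the study's methods name edgeR for a quantile normalization. Versions are not given in the sources used here. The deposited values are log2 of the normalized read count plus 1. Whether the counting used strand is not stated. Fstl3 and Prss57, which overlap on opposite strands, appear to share their reads, so other such pairs may share reads too.

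Relative library sizes and a common dispersion of 0.149 were fitted to the deposited values, and whole reads were recovered from them. The recovered reads returned each deposited log2 value to within 0.000585. Among 25460 values that came out at 5 to 99 reads, 100% were whole to within 0.1 read. A trimmed mean of log ratios gave sizes within 0.113% of the fitted ones. The procedure was tested on simulated data. Because the data hold normalized log2 values and not counts, fold changes were taken as differences between them. A call needed a change of at least 2-fold and 4 normalized reads in 1 of the 2 libraries, after the study's own definition. A library with 0 reads was set at 3 reads for bounds. With 1 library per group no test between groups was made.

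The members, gene lists and markers were chosen with earlier results of these data known. Named genes are all 9 members, up to 4 genes per role of the wider list with the largest called change and a mean of at least 16 normalized reads, and Acvr1b, Tgfbr1, Smad2 and Smad3. Inha, Gfral, Acvr1c, Postn, Tll1 and Trp53 of the wider list were named in addition, after their values were seen. Where a symbol had more than 1 row, the row with the highest mean was used. Alternatives were scaling by total reads, scaling without genes over 1% of a library, a trimmed mean of log ratios, a pseudocount of 4, no count minimum and a minimum of 16. Positions are from GENCODE M21 and upstream sequences from RefSeq. Computations were run in Python 3.11.15, using scipy 1.17.1 and numpy 2.4.6 for the fits, pandas 2.3.3 for tables and matplotlib 3.10.9 for figures.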

Additional observations from a re-analysis of the deposited data

Results flagged for a closer look

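Fst was called in opposite directions for exercise. It was 1.02 higher on the log2 scale in E(+)T(−) than in E(−)T(−), with 12 against 4 reads, and in E(+)T(+) it fell by 1.02 against E(−)T(+), with 16 against 41 reads. The tumor-free pair and the cancer pair thus moved in opposite directions, and the difference between these changes was not tested, since each group has 1 library. The 95% counting interval of the first change, -0.48 to 3.33, includes 0.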

How the results depend on the processing

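No paired analysis was possible because each group has 1 library, and for the same reason no library could be left out. Over the 136 fold changes of the 9 genes recomputed under another scaling or pseudocount, 129 stayed within their counting interval, 7 moved beyond it, all under scaling by total reads, 130 kept their sign and no called change reversed. Of 48 counts of called genes, 45 stayed within 1.5 times. The exceptions were the 5 calls among the 9 genes with tumor-free exercise, which were 2 with a pseudocount of 4 and 2 with a minimum of 16, and the 17 calls of the wider list with exercise in cancer-bearing mice, which were 11 with a minimum of 16. The higher minimum tests fewer genes, and the larger pseudocount shrinks changes of low genes by construction.

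Scaling by total reads counts the globin reads of E(+)T(+). It moved the share of higher calls among all calls from 48.4% to 12.9% for exercise in cancer-bearing mice, from 52.0% to 13.7% for the tumor in exercised mice and from 52.7% to 42.1% for the tumor without exercise, where it moved the median of all genes by -0.15. Scaling without genes over 1% of a library gave 41.3% for the tumor in exercised mice. Under scaling by total reads the 9 genes gave 0 higher and 5 lower for exercise in cancer-bearing mice, and 1 higher and 5 lower for the tumor in exercised mice, where Inhba was -1.07. Gdf11 and Mstn are limited by depth.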
